A study of Rattus norvegicus with 28 samples.

Results

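Rat kidney fibroblasts given transforming growth factor β1 (TGF-β) plus an siRNA, a short RNA that silences a gene, against the homeobox gene Hoxc8 were set against untreated cells of the same line. The genes described are those with at least 1 FPKM (fragments scaled to gene length and library depth) in at least 2 of the 4 libraries of these 2 groups, 11898 of the 30178 genes listed. The cells are NRK-49F, an established fibroblast line from rat kidney, and the measurement was RNA-seq of polyadenylated RNA. The series holds 8 such libraries in 4 groups of 2, and its 20 chromatin and input samples were not analysed here.

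The control group is labelled as control, with no time of harvest given. The TGF-β group received TGF-β1 for 48 h, and the third group used here, called knockdown below, received TGF-β1 for 48 h with the siRNA, which the labels name siHoxc8. By the labels' protocols all were grown with 10% serum and starved for 24 h in 0.2% serum, and TGF-β1 was given at 5 ng per uL, the unit as the labels print it. The remaining RNA-seq group, TGF-β with methionine restriction, entered only the shared estimate of the spread. No RNA-seq group with a control siRNA, and none with the siRNA but without TGF-β, was analysed here. In the comparison of knockdown with control, the effects of the cytokine, of transfection and of the loss of Hoxc8 therefore cannot be told apart, and the comparison of knockdown with TGF-β holds transfection and the loss of Hoxc8 together. Whether the 2 libraries of each group stem from independent cultures is not stated in the labels. The p-values then reflect the spread of these libraries alone, which may be technical.

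TGF-β is a secreted cytokine that binds a pair of receptor kinases, which phosphorylate Smad2 and Smad3. With Smad4 these enter the nucleus and act on target genes. In fibroblasts it is known for driving the change to a myofibroblast, a contractile cell that makes smooth muscle actin and deposits collagen and other matrix, and for arresting growth in many cell types. Hox genes encode homeodomain transcription factors that set position along the body axis, and fibroblasts keep a regional Hox pattern in culture.

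All differences below are in log2(FPKM + 1), given with the standard error from limma, a scale on which changes of low genes look smaller than they are. Called, raised and lowered mean an adjusted p under 0.05 by limma with Benjamini-Hochberg adjustment over all 12315 genes tested. Values in pairs are the 2 libraries of a group, in FPKM. In these bulk libraries a change in the share of cells that express a gene cannot be told apart from a change in RNA per cell.

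Hoxc8 itself stood at 1.12 and 1.34 FPKM in control, at 4.32 and 5.01 with TGF-β and at 0.463 and 0.0771 in knockdown. Knockdown was below both other groups without overlap, with a difference of -0.83 ± 0.19 from control (adjusted p = 0.0096) and of -2.17 ± 0.19 from TGF-β (adjusted p = 0.000182). These levels rest on 43 and 51 reads in control, 150 and 176 with TGF-β, and 15 and 3 in knockdown. The call against control was lost without control replicate 2 (adjusted p = 0.0668) and without knockdown replicate 2 (adjusted p = 0.067). The target of the siRNA was therefore low in the libraries that carry its label, and lower than in cells that had no TGF-β.

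Against control, 2650 genes were raised in knockdown (22.3%) and 3313 were lowered (27.8%), 50.1% in either direction. The excess of lowered genes turned over with the scaling, to 3083 raised and 3020 lowered with median ratio rescaling and 3179 and 3050 with quantile normalization. Of the 2650 and 3313, 752 rose and 1128 fell at least 2-fold, and the groups did not overlap for 10130 genes (85.1%). The median difference over all 11898 genes was -0.052. Counts of gene lists against control below are to be read beside these shares of 22.3% raised and 27.8% lowered. Fewer genes passed when a library was left out: 1675 raised and 2028 lowered without control replicate 1, 1675 and 2107 without control replicate 2, 1593 and 2201 without knockdown replicate 1, and 1642 raised without knockdown replicate 2. A total of 253 genes reached 1 FPKM in both knockdown libraries and in neither control library, and 426 did so in both control libraries and in neither knockdown library.

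For the same genes, TGF-β against control raised 1207 (10.1%) and lowered 3516 (29.6%), 39.7% in either direction, and knockdown against TGF-β raised 3445 (29%) and lowered 1862 (15.6%). Both splits move with the scaling. Rescaling each library by its median ratio gave 2278 raised and 2088 lowered for TGF-β against control, and 2564 raised and 2660 lowered for knockdown against TGF-β. Without control replicate 1 the former comparison gave 566 raised and 1572 lowered, without control replicate 2 it gave 603 and 1701, and without knockdown replicate 1 or 2 the latter gave 1925 or 2029 raised and 1104 or 1193 lowered. These comparisons share libraries with the main one, so they are used only to place a gene between resting and TGF-β-treated cells.

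**Figure D1:**
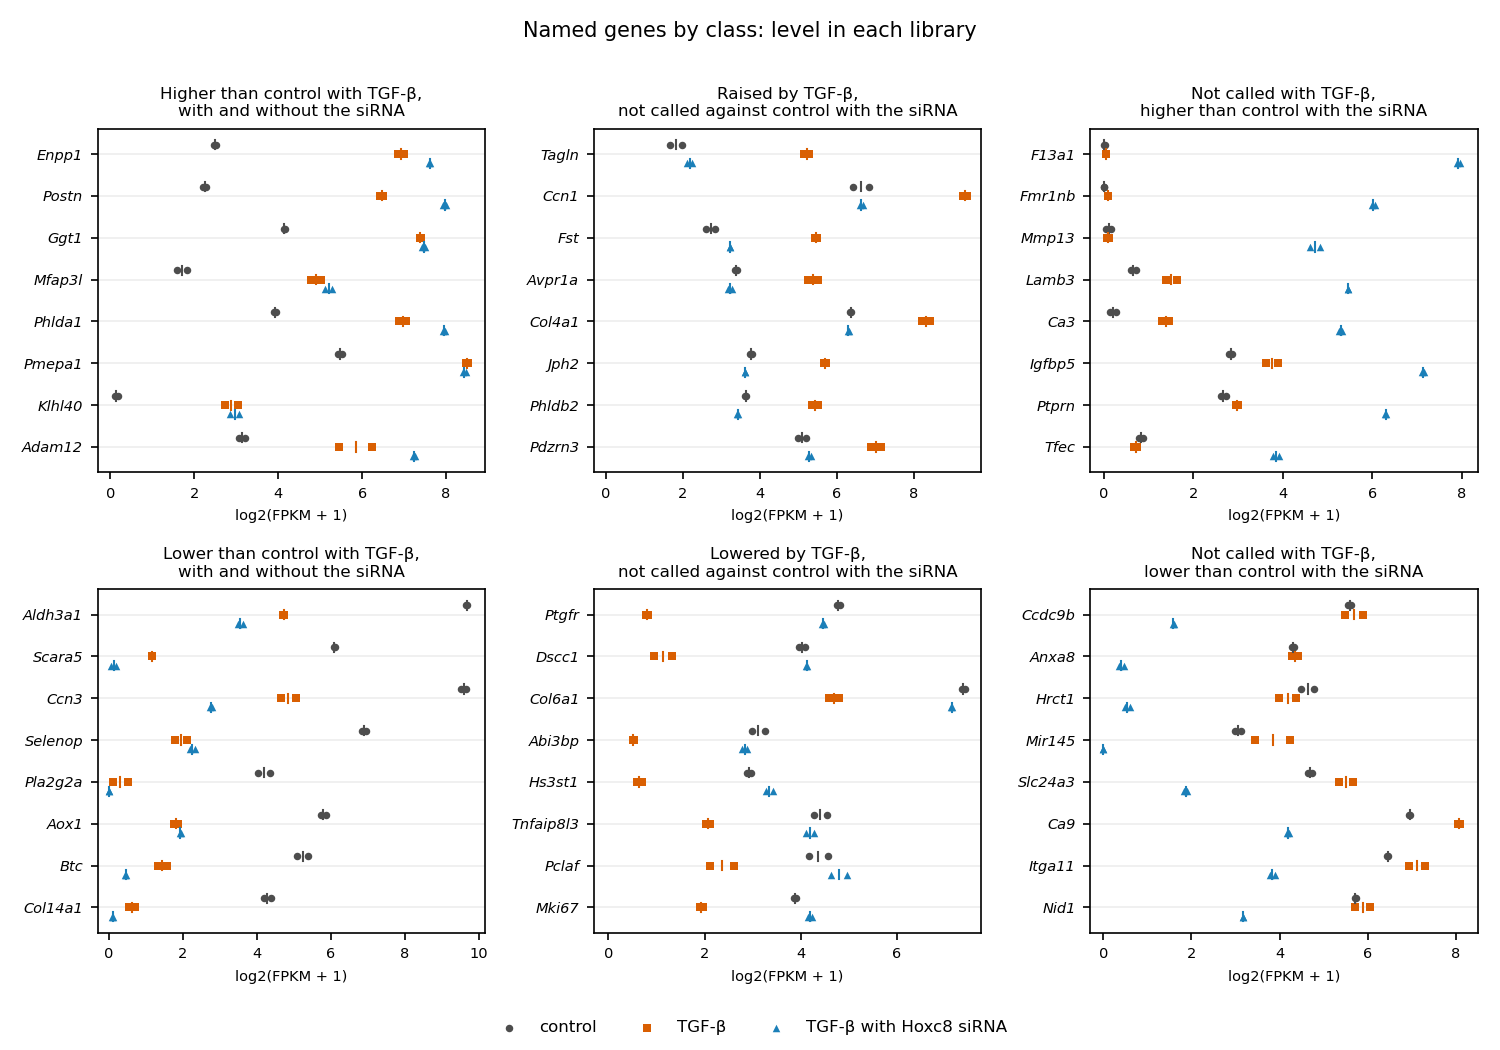
Level of the named genes in each library of 3 groups, as log2(FPKM + 1) on the horizontal axis: points are libraries and short bars the mean of 2. In the left column both TGF-β groups lie away from control on the same side, in the middle column knockdown lies beside control, and in the right column TGF-β was not called against control and knockdown stands away from both.

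Genes that TGF-β raised and that stayed above control in knockdown were led by Enpp1, an ectoenzyme that makes pyrophosphate from nucleotides. It stood at 4.75 and 4.49 FPKM in control, 114 and 126 with TGF-β and 193 and 195 in knockdown, 5.12 ± 0.094 above control (adjusted p = 2.2e-07). Postn, the matrix protein periostin, went from 3.88 and 3.65 in control to 85.5 and 89.7 with TGF-β and 244 and 256 in knockdown, 5.72 ± 0.21 above control (adjusted p = 5.51e-06). Knockdown was thus the highest of the 3 groups for both, and above TGF-β by 0.69 ± 0.094 for Enpp1 (adjusted p = 0.00107) and 1.505 ± 0.21 for Postn (adjusted p = 0.00118).

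Pmepa1, a feedback inhibitor of TGF-β signalling, lay at 44.6 and 42.1 FPKM in control, 356 and 364 with TGF-β and 354 and 338 in knockdown. Its difference from control was 2.97 ± 0.11 (adjusted p = 5.51e-06), and knockdown differed from TGF-β by -0.059 (95% interval -0.31 to 0.19). Ggt1, the enzyme γ-glutamyltransferase of glutathione breakdown, had 16.5 and 16.9 in control, 164 and 167 with TGF-β and 172 and 181 in knockdown. For Ggt1 and Pmepa1 the 2 TGF-β groups were close together and far above control. Mfap3l (2.52 and 2.02 in control, 33.8 and 38.2 in knockdown) and Klhl40, a muscle protein of the kelch family (0.0738 and 0.124 in control and 7.35 and 6.27 in knockdown), rose by 3.50 and 2.83 against control. Adam12, a membrane metalloprotease, went from 8.28 and 7.42 to 152 and 147 in knockdown with 73.9 and 43.0 in TGF-β, and Phlda1, a pleckstrin-homology protein, from 14.3 and 13.9 to 243 and 251 with 117 and 132 in TGF-β. Both were higher in knockdown than with TGF-β alone, by 1.39 ± 0.27 (adjusted p = 0.00516) and 0.99 ± 0.12 (adjusted p = 0.000575).

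Among genes low in both TGF-β groups, Aldh3a1, an aldehyde dehydrogenase, had 822 and 808 FPKM in control, 25.5 and 25.2 with TGF-β and 11.2 and 10.2 in knockdown. Its difference from control was -6.13 ± 0.28 (adjusted p = 1.29e-05). Ccn3, a secreted matricellular protein, had 802 and 736 in control, 24.2 and 32.1 with TGF-β and 5.62 and 5.94 in knockdown, a difference from control of -6.83 ± 0.28 (adjusted p = 8.83e-06) and the largest fall of the comparison under the naming rule. Scara5, a ferritin receptor of resting fibroblasts, had 66.3 and 68.2 in control and 0.139 and 0.0435 in knockdown, with 1.25 and 1.22 in TGF-β. Every knockdown library lay below the TGF-β libraries as well, for Ccn3 with a difference of -2.09 ± 0.28 (adjusted p = 0.00105).

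Selenop, the selenium carrier of plasma, had 112 and 123 FPKM in control and 3.58 and 3.98 in knockdown, and Aox1, an aldehyde oxidase, 51.7 and 57.0 in control and 2.76 and 2.88 in knockdown. Btc, the growth factor betacellulin, had 41.0 and 32.8 in control and 0.375 and 0.357 in knockdown, and Col14a1, a fibril-associated collagen, 19.8 and 17.2 in control and 0.0859 and 0.0613 in knockdown. Pla2g2a, a secreted phospholipase, had 19.3 and 15.4 in control, 0.436 and 0.0718 with TGF-β and was listed at 0 in both knockdown libraries. No knockdown library of these genes came near a control library, and the adjusted p-values against control ran from 1.36e-05 (Pla2g2a) to 8.2e-05 (Col14a1).

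The contractile part of the programme took another course. Acta2, which encodes the smooth muscle actin that marks a myofibroblast, stood at 12.5 and 11.3 FPKM in control, 527 and 550.5 with TGF-β and 24.3 and 21.6 in knockdown. Knockdown stayed above control by 0.90 ± 0.20 (adjusted p = 0.00825) and lay -4.50 ± 0.20 from TGF-β (adjusted p = 2.38e-05). The call against control was lost without control replicate 2 (adjusted p = 0.0536) and without knockdown replicate 1 (adjusted p = 0.0545). Tagln, the actin-binding protein transgelin, had 2.18 and 2.92 in control, 34.5 and 37.8 with TGF-β and 3.74 and 3.34 in knockdown. It was not called against control, with a difference of 0.36 (95% interval -0.24 to 0.96, adjusted p = 0.28), although the 4 libraries did not overlap.

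The Acta2 promoter is shown because this gene had the largest difference between knockdown and TGF-β on the contractile list and because its window holds an M-CAT element, the site that TEAD factors are known to bind in muscle promoters. The 250 bases before the annotated start were taken from RefSeq (build GRCr8), read 5′ to 3′ on the minus strand at chr1:241172504-241172753, with the match to CATTCC on either strand in capitals.
Acta2: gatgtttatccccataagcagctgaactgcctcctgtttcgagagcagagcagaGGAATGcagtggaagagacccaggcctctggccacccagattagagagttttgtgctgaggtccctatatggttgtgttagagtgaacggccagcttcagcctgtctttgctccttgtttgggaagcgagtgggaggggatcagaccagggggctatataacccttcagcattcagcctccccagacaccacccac
The match begins 196 bases before the start. Of the 22 contractile genes, 19 had a promoter window in the RefSeq table (250 bases before to 50 after the start), and 9 of the 19 (47.4%) held CATTCC on either strand, against 14.2% of all 33469 windows in the table. The holders were Acta2, Cald1, Flna, Fhl2, Myh10, Tagln2, Tpm1, Vcl and Zyx. A CArG box, the site of serum response factor, was in 2 of the 19 (10.5%), against 1.64% of all windows. It was searched as CCWWWWWWGG on either strand, where W is A or T. Stretches with a G or C inside, such as ccctatatgg and ccttgtttgg in the Acta2 window, were therefore not counted. Among genes of the comparison CATTCC was in 10.6% of windows of raised genes, 12.6% of lowered genes and 10.6% of genes not called. A match is a stretch of letters and not a bound site.

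Of the 22 contractile genes 6 were raised and 7 lowered against control in knockdown, with a median of 0.068 beside -0.052 over all genes, where TGF-β against control raised 17 and lowered 2. Without any one of the 4 libraries of this comparison 3 to 5 were raised and 4 lowered, and the median turned negative with quantile normalization (-0.047). Actn1, the crosslinker α-actinin, had 98.2 and 98.7 FPKM in control, 322 and 272 with TGF-β and 113 and 109.9 in knockdown, and was not called against control (95% interval -0.062 to 0.42). Cald1, the actin-binding protein caldesmon, had 139 and 137 in control, 665 and 625 with TGF-β and 179 and 188 in knockdown, 0.41 ± 0.13 above control (adjusted p = 0.0344), a call lost without any one of the 4 libraries (adjusted p = 0.11 to 0.16) and with quantile normalization (adjusted p = 0.29). These genes lay close to resting cells. Flna, the actin crosslinker filamin A, passed below them, at 357 and 363 in control, 658 and 508 with TGF-β and 201 and 194 in knockdown (-0.86 ± 0.15 from control, adjusted p = 0.00263), and so did Tpm1, a tropomyosin, at 298 and 308 in control, 501 and 555 with TGF-β and 204 and 206 in knockdown (-0.56 ± 0.097, adjusted p = 0.00269). Cnn2, a calponin, and Pdlim7 remained above control, by 0.78 ± 0.089 (adjusted p = 0.00042) and 0.85 ± 0.10 (adjusted p = 0.000489). Smtn, smoothelin, was not called with TGF-β and rose in knockdown, from 18.7 and 21.3 in control and 21.0 and 20.7 with TGF-β to 36.8 and 37.4 (0.80 ± 0.095 from TGF-β, adjusted p = 0.000601).

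**Figure D2:**
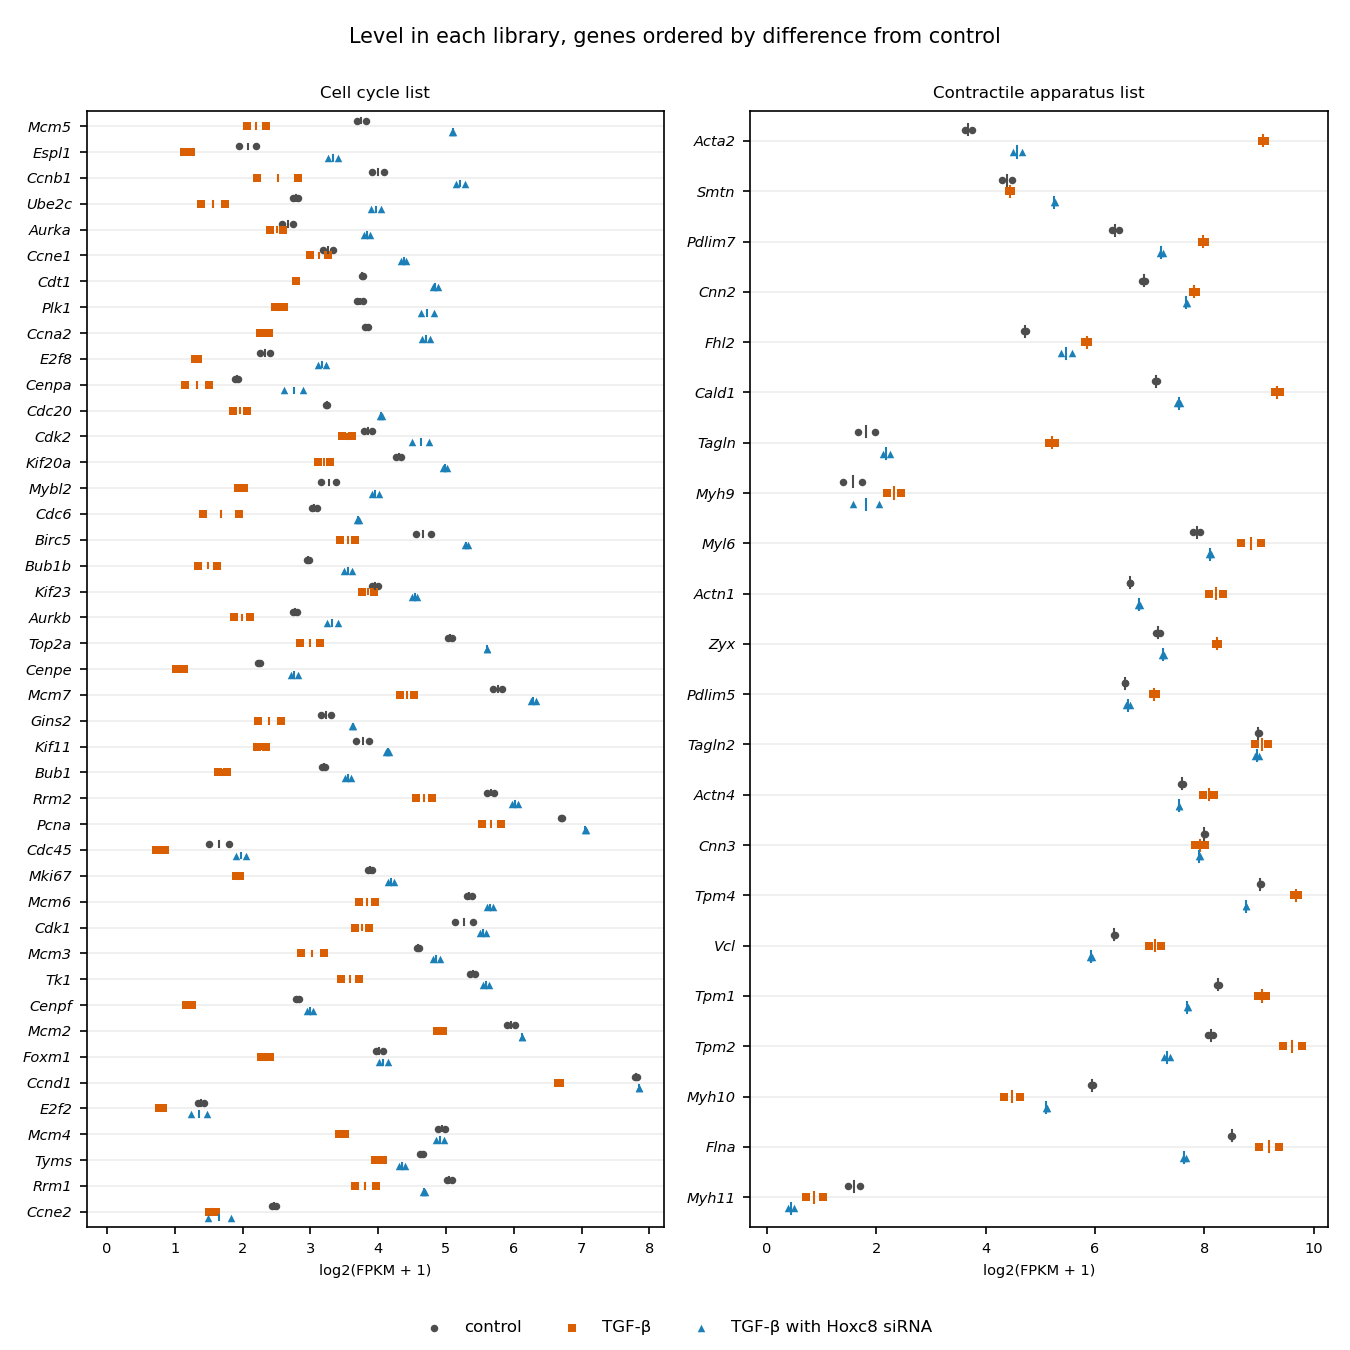
Level of each cell cycle gene (left) and contractile gene (right) in the libraries of 3 groups, as log2(FPKM + 1), with short bars at the mean of 2 libraries. Most cell cycle genes have TGF-β to the left and knockdown at or to the right of control. Contractile genes such as Acta2, Cald1 and Actn1 have TGF-β to the right and knockdown nearer to control than to TGF-β, with Acta2 and Cald1 called above control.

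Other genes that TGF-β raised and that were not called against control in knockdown included Ccn1, a matricellular protein and target of YAP and TEAD factors. It had 85.0 and 112 FPKM in control, 612 and 657 with TGF-β and 95.4 and 101 in knockdown, and the knockdown libraries lay between the control libraries (95% interval of the difference -0.42 to 0.43). Col4a1, a basement membrane collagen chain, had 80.5 and 81.7 in control, 339.6 and 293 with TGF-β and 76.7 and 78.0 in knockdown (95% interval -0.48 to 0.35). Its partner chain Col4a2 had 77.8 and 84.5 in control, 298 and 232 with TGF-β and 94.4 and 98.6 in knockdown. Knockdown was far below TGF-β in each, with differences of -2.68 ± 0.18 for Ccn1 (adjusted p = 6.79e-05), -2.01 ± 0.18 for Col4a1 (adjusted p = 0.00018) and -1.44 ± 0.19 for Col4a2 (adjusted p = 0.000885).

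Fst, the activin antagonist follistatin, had 6.10 and 5.14 FPKM in control, 42.3 and 43.6 with TGF-β and 8.32 and 8.44 in knockdown, and missed the threshold against control (adjusted p = 0.054). Avpr1a, the vasopressin receptor, had 9.33 and 9.57 in control, 44.9 and 37.3 with TGF-β and 8.03 and 8.78 in knockdown, and Jph2, which joins membranes in muscle, 12.9 and 12.5 in control, 51.9 and 50.025 with TGF-β and 11.3 and 11.3 in knockdown. Phldb2 ran alike at 11.3 and 11.5 in control, 44.9 and 39.9 with TGF-β and 9.55 and 9.89 in knockdown, and so did Pdzrn3 at 30.8 and 35.6 in control, 139 and 118 with TGF-β and 39.1 and 36.9 in knockdown. The 95% intervals of the difference from control were -0.67 to 0.36 for Avpr1a, -0.36 to 0.042 for Jph2, -0.75 to 0.34 for Phldb2 and -0.25 to 0.64 for Pdzrn3.

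In the opposite direction, Ptgfr, the prostaglandin F receptor, had 27.1 and 25.8 FPKM in control, 0.719 and 0.772 with TGF-β and 20.6 and 21.3 in knockdown (95% interval against control -0.80 to 0.15). Col6a1, a chain of the beaded collagen VI, had 161 and 169 in control, 26.8 and 23.2 with TGF-β and 139 and 141 in knockdown (95% interval -0.88 to 0.40). Both were low with TGF-β alone and near the control level in knockdown. Abi3bp (8.49 and 6.91 in control and 5.87 and 6.39 in knockdown), Hs3st1, a heparan sulfate sulfotransferase (6.82 and 6.32 in control and 9.67 and 8.71 in knockdown), and Tnfaip8l3 (22.2 and 18.3 in control and 18.2 and 16.1 in knockdown) behaved alike. So did Dscc1 (16.0 and 14.5 in control and 16.3 and 16.5 in knockdown), Pclaf (22.6 and 16.9 in control and 30.0 and 23.8 in knockdown) and Mki67 (13.4 and 14.0 in control and 17.8 and 16.6 in knockdown), which belong to DNA replication and proliferation. Mki67 missed the threshold against control at an adjusted p of 0.0592 and passed it when libraries were rescaled by their median ratio (adjusted p = 0.035). With the methionine restriction libraries left out of the fit, the differences from control also passed for Mki67 (adjusted p = 0.0193), Tagln (0.0476), Fst (0.00374), Ptgfr (0.014), Col6a1 (0.0424) and Hs3st1 (0.0159). In that fit Tagln, Fst, Ptgfr and Col6a1 came near the control level without reaching it. Mki67 and Hs3st1, low with TGF-β alone, lay above control in knockdown, by 0.31 and 0.43.

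Of 43 cell cycle genes, 23 were raised and 3 lowered against control in knockdown, with a median of 0.52, where TGF-β against control lowered 39. Knockdown against TGF-β raised 42 of them. Without any one of the 4 libraries of the main comparison 13 to 15 were raised and 0 or 1 lowered. Ccnb1, the mitotic cyclin B1, had 14.0 and 16.0 FPKM in control, 3.65 and 6.07 with TGF-β and 37.8 and 34.5 in knockdown, 1.22 ± 0.19 above control (adjusted p = 0.00189). Mcm5, a subunit of the replicative helicase, had 11.9 and 13.1 in control, 3.18 and 4.07 with TGF-β and 33.4 and 33.1 in knockdown, 1.35 ± 0.16 above control (adjusted p = 0.000506). For both, every knockdown library was above every control library and every TGF-β library below.

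Ube2c and Espl1, which act in the exit from mitosis, rose by 1.19 and 1.25 against control, and Cdt1, which loads the helicase, by 1.08. Top2a, topoisomerase II, had 32.9 and 31.8 FPKM in control, 6.18 and 7.83 with TGF-β and 47.6 and 47.5 in knockdown, 0.54 ± 0.13 above control (adjusted p = 0.0095), a call lost without any one of the 4 libraries (adjusted p = 0.0532 to 0.0683). Cdk1, the mitotic kinase, had 34.0 and 41.1 in control, 11.6 and 13.6 with TGF-β and 47.1 and 44.3 in knockdown and was not called against control (95% interval -0.025 to 0.59). Ccnd1, cyclin D1, was at 229 and 230.3 in knockdown beside 226 and 219.8 in control and 102 and 100.0 with TGF-β. The 3 that were lower than control were Ccne2 at 1.81 and 2.55 beside 4.60 and 4.43, Rrm1 at 24.95 and 24.4 beside 33.2 and 31.2, and Tyms at 18.9 and 20.024 beside 23.6 and 24.4, with each call lost when single libraries were left out (adjusted p up to 0.0939, 0.193 and 0.223). Among inhibitors of the cycle, Cdkn1a, which encodes p21, had 101 and 98.4 in control, 253 and 279 with TGF-β and 82.1 and 87.0 in knockdown, and Cdkn1b, which encodes p27, 120.0 and 105 in control, 53.2 and 61.2 with TGF-β and 74.5 and 71.2 in knockdown. Cdkn1a was not called against control (adjusted p = 0.0909) but passed without the methionine restriction libraries (0.0349) and with quantile normalization (0.044), and Cdkn1b differed from it by -0.62 ± 0.12 (adjusted p = 0.00392).

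Knockdown against TGF-β raised 42 of these 43 genes. The promoters of Cdk1 and Top2a are printed as 2 of the genes whose window holds the motif shown. Against control neither gene held a call in every fit. Both are shown with the cell cycle homology region (CHR, TTTGAA, either strand) in capitals. The CHR is known as a site through which repressor and activator complexes act on cell cycle promoters. The 250 bases before each start are given 5′ to 3′ from RefSeq (GRCr8), Cdk1 at chr20:19265043-19265292 on the plus strand and Top2a at chr10:84473094-84473343 on the minus strand.
Cdk1: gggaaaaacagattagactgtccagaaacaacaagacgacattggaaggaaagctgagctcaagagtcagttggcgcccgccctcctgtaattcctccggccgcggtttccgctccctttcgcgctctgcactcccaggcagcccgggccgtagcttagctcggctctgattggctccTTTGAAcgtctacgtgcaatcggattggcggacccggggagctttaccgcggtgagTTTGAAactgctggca
Top2a: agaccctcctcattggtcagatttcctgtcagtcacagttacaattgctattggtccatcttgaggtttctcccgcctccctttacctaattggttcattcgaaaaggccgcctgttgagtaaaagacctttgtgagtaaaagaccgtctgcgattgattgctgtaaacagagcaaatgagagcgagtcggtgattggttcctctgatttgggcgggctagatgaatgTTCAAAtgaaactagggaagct
The matches begin 72 and 16 bases before the Cdk1 start and 22 bases before the Top2a start. Of the 43 cell cycle genes 32 had a window, and 12 (37.5%) held the CHR and 23 (71.9%) a CCAAT box (CCAAT, either strand), against 18.3% and 37.5% of all windows.

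Genes not called with TGF-β but raised in knockdown were led by F13a1, the A subunit of coagulation factor XIII, a transglutaminase that crosslinks fibrin and matrix. It stood at 0.0145 and 0 FPKM in control, 0.0321 and 0.0317 with TGF-β and 236 and 246 in knockdown, the largest rise of the comparison under the naming rule at 7.91 ± 0.12 (adjusted p = 2.14e-07). The knockdown values rest on 13728 and 17191 reads, and control holds 1 and 0 reads. Fmr1nb was listed at 0 in both control libraries, at 0.0680 and 0.0672 with TGF-β and at 65.3 and 62.7 in knockdown, and passed the test at an adjusted p of 2.2e-07. Both were almost silent in the 2 other groups and clearly expressed in knockdown.

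Lamb3, a laminin chain of epithelial basement membrane, had 0.525 and 0.639 FPKM in control, 1.61 and 2.09 with TGF-β and 42.7 and 42.7 in knockdown (4.79 ± 0.29, adjusted p = 3.12e-05). Igfbp5, which binds insulin-like growth factors, had 6.34 and 6.01 in control, 11.4 and 14.0 with TGF-β and 141 and 138 in knockdown (4.29 ± 0.43, adjusted p = 0.000244). Ca3, a carbonic anhydrase of muscle and fat, had 0.105 and 0.213 in control, 1.48 and 1.77 with TGF-β and 39.3 and 37.4 in knockdown, and Ptprn, a protein of secretory granules, 5.61 and 5.13 in control, 7.01 and 6.80 with TGF-β and 78.0 and 77.4 in knockdown. Tfec, a transcription factor of the MiT family, had 0.722 and 0.833 in control, 0.608 and 0.677 with TGF-β and 12.8 and 14.1 in knockdown. With the methionine restriction libraries left out of the fit, TGF-β against control passed the threshold for Ca3, Lamb3, Igfbp5 and Ptprn, so for these 4 knockdown stands beyond a smaller rise with TGF-β. The same held for Fmr1nb with a pseudocount of 0.1.

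Further genes among the 10 largest rises had TGF-β levels between control and knockdown. Slc17a6, a vesicular glutamate transporter, had 0.124 and 0.0834 FPKM in control, 2.36 and 3.09 with TGF-β and 53.9 and 51.9 in knockdown (5.61 ± 0.36, adjusted p = 3.97e-05). Lama1, a laminin chain, had 0.390 and 0.298 in control, 7.42 and 6.48 with TGF-β and 51.5 and 53.6 in knockdown (5.32 ± 0.28, adjusted p = 2.02e-05), and Slc25a48, a mitochondrial carrier, was listed at 0 in control, at 0.806 and 0.996 with TGF-β and at 32.0 and 35.0 in knockdown. In these the order was control, TGF-β, knockdown.

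Lowered genes that had not been called with TGF-β included Ccdc9b, at 46.2 and 48.6 FPKM in control, 58.7 and 44.2 with TGF-β and 2.02 and 2.01 in knockdown (-4.005 ± 0.36, adjusted p = 0.000155). Anxa8, a phospholipid-binding annexin, had 18.4 and 19.1 in control, 18.6 and 20.4 with TGF-β and 0.377 and 0.285 in knockdown, and Nid1, a basement membrane linker protein, 51.4 and 52.4 in control, 65.6 and 51.7 with TGF-β and 8.02 and 8.05 in knockdown. Itga11, the collagen receptor integrin α11, had 87.7 and 86.2 in control, 158 and 121 with TGF-β and 12.7 and 13.8 in knockdown (-2.62 ± 0.36, adjusted p = 0.001). Slc24a3, an ion exchanger, fell from 24.2 and 25.6 in control to 2.72 and 2.58 in knockdown, Ca9, a hypoxia-regulated carbonic anhydrase, from 122 and 124 to 17.6 and 17.0, and Hrct1 from 26.6 and 21.6 to 0.412 and 0.514. The row named Mir145, a microRNA gene, had 11 and 12 reads in control, 14 and 26 with TGF-β and 0 in both knockdown libraries, and says nothing of the mature microRNA in polyadenylated RNA. TGF-β against control passed for Slc24a3, Ca9, Itga11, Hrct1 and Mir145 when the methionine restriction libraries were left out. That difference was a rise for Slc24a3 (0.81), Ca9 (1.12), Itga11 (0.66) and Mir145 (0.79), opposite to the fall in knockdown. For Hrct1 it was a fall (-0.45).

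Of 20 matrix proteases and inhibitors 13 were raised and 4 lowered in knockdown against control, with a median of 1.22, and TGF-β against control raised 8 and lowered 8. Mmp3, stromelysin 1, had 14.4 and 12.8 FPKM in control, 1.95 and 2.28 with TGF-β and 93.5 and 89.9 in knockdown (2.67 ± 0.28, adjusted p = 0.000288). Mmp10, stromelysin 2, had 1.57 and 2.15 in control, 0.471 and 0.107 with TGF-β and 18.2 and 15.3 in knockdown (2.64 ± 0.38, adjusted p = 0.00113). Mmp13, collagenase 3, had 0.0428 and 0.130 in control, 0.0474 and 0.0937 with TGF-β and 23.5 and 27.6 in knockdown (4.61 ± 0.59, adjusted p = 0.000719). Mmp3 fell with TGF-β alone (-2.23 ± 0.28, adjusted p = 0.00101) and rose above control in knockdown, and Mmp10 had the same order of levels.

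These 3 proteases are neighbours in a cluster of Mmp genes, and their promoters are printed because all hold an AP-1 site (TGANTCA, either strand, in capitals), the element bound by Fos and Jun dimers, close to the start. The 250 bases before each start, 5′ to 3′ on the plus strand from RefSeq (GRCr8), are at chr8:12925031-12925280 for Mmp3, chr8:12974457-12974706 for Mmp10 and chr8:12782579-12782828 for Mmp13.
Mmp3: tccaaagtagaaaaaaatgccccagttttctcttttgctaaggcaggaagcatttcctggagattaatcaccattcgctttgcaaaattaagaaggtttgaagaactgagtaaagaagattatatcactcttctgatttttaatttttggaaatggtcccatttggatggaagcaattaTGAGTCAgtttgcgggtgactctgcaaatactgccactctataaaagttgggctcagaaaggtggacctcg
Mmp10: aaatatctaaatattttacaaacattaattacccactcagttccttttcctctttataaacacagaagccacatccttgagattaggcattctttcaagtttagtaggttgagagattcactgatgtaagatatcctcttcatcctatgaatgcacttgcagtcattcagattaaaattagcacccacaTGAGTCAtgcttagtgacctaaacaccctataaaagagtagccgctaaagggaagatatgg
Mmp13: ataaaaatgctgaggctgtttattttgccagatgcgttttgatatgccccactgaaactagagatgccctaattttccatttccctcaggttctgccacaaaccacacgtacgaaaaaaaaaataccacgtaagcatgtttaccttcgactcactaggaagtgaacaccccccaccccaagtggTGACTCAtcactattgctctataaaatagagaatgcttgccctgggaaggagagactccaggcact
The matches begin 71, 61 and 66 bases before the start. Of the 14 listed proteases and inhibitors with a window, 5 (35.7%) held the AP-1 site, the others being Mmp12 and Plaur, against 7.33% of all windows. The site was in 43 of 508 windows (8.46%) of genes raised at least 2-fold, in 43 of 735 (5.85%) of genes lowered at least 2-fold and in 190 of 4152 (4.58%) of genes not called. Among all raised genes it was in 106 of 1970 windows (5.38%), and among all lowered genes in 108 of 2412 (4.48%).

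Genes of the AP-1 family and other immediate early genes were raised in 12 of 21 cases and lowered in 5, with a median of 0.63, and in 8 to 11 and 3 cases without any one of the 4 libraries. Fosl1, the Fos relative FRA-1, had 8.41 and 8.43 FPKM in control, 13.2 and 13.1 with TGF-β and 53.1 and 59.1 in knockdown (2.60 ± 0.41, adjusted p = 0.00172). Junb had 30.9 and 37.5 in control, 60.3 and 71.8 with TGF-β and 142 and 155 in knockdown (2.10 ± 0.29, adjusted p = 0.00107). Fos rose from 0.316 and 0.532 to 4.32 and 3.36 and Fosb from 0.566 and 0.497 to 3.53 and 4.02. Klf4, a transcription factor that holds cells out of division in many tissues, went the other way, from 174 and 186 to 11.5 and 14.1 (-3.72 ± 0.16, adjusted p = 9.73e-06).

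Among the remaining proteases, Mmp2, gelatinase A, had 142 and 142 FPKM in control, 188 and 177 with TGF-β and 418 and 429.9 in knockdown, and Mmp14, its membrane-bound activator, 181 and 189 in control, 268 and 254 with TGF-β and 421 and 423 in knockdown. Their inhibitor Timp2 was lower in knockdown, at 518 and 516 beside 1735 and 1816 in control and 869.8 and 908 with TGF-β (-1.78 ± 0.15, adjusted p = 0.000111), and Timp1 and Timp3 were higher than control by 0.97 and 1.25. Adamts12, a secreted protease, rose by 2.69, while Adamts5, an aggrecanase, and the membrane inhibitor Reck fell, with differences of -2.37 ± 0.25 (adjusted p = 0.000276) and -1.21 ± 0.14 (adjusted p = 0.000398). Plaur, the urokinase receptor, had 25.5 and 31.4 in control and 126 and 133 in knockdown.

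**Figure D3:**
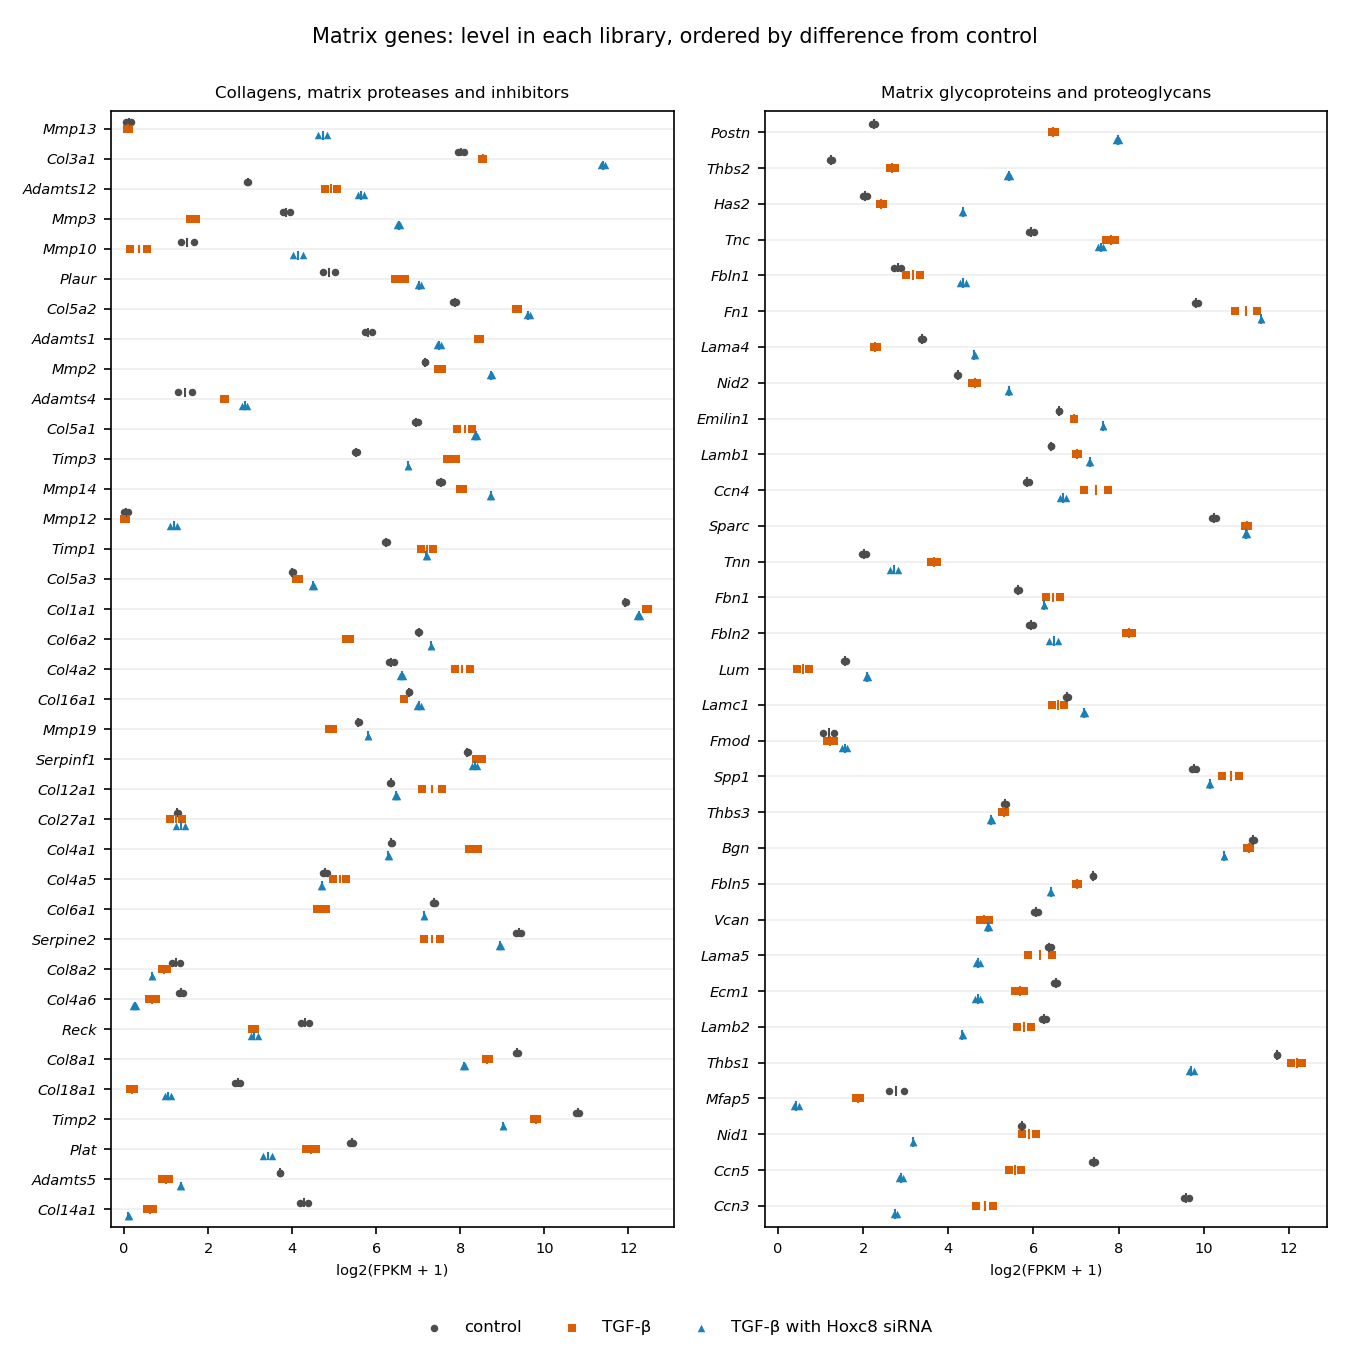
Level of collagens, matrix proteases and inhibitors (left) and of matrix glycoproteins and proteoglycans (right) in the libraries of 3 groups, as log2(FPKM + 1), ordered by the difference of knockdown from control, with short bars at the mean of 2 libraries. Mmp13, Col3a1, Adamts12, Mmp3 and Mmp10 lead the left panel with knockdown to the right of both other groups, and Ccn3 and Ccn5 close the right panel with control far to the right.

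Of 18 collagen genes 3 were raised and 4 lowered, with a median of 0.10, where 22.3% of all genes were raised and 27.8% lowered. Lowered were 2 without either control replicate, and leaving out the methionine restriction libraries gave 6 raised and 6 lowered, and fitting only control and knockdown 9 and 6. Col3a1, a fibrillar collagen of granulation tissue, had 247 and 269 FPKM in control, 367 and 374 with TGF-β and 2588 and 2785 in knockdown (3.37 ± 0.59, adjusted p = 0.00284). Col1a1, the chain of the most abundant fibrillar collagen, had 3852 and 3949 in control, 5627 and 5449 with TGF-β and 4717 and 4992 in knockdown, and was not called against control (95% interval -0.24 to 0.87, adjusted p = 0.308), although the libraries did not overlap. It passed when only the control and knockdown libraries were fitted (adjusted p = 0.00335). Col5a1 and Col5a2 encode chains of the collagen that starts fibrils, and both rose. Col5a1 had 119.9 and 127 in control, 311 and 243 with TGF-β and 321 and 338 in knockdown, and Col5a2 227 and 239 in control, 661 and 636 with TGF-β and 770.1 and 806 in knockdown. Besides Col14a1, Col18a1 fell from 5.27 and 5.78 in control to 1.16 and 0.956 and Col4a6 from 1.64 and 1.49 to 0.228 and 0.168, both chains of basement membranes.

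Of the enzymes that modify and crosslink collagen, 5 of 21 were raised and 6 lowered, near the 22.3% and 27.8% of all genes. With only control and knockdown fitted the counts were 9 and 10. Plod2, a lysyl hydroxylase, had 67.8 and 65.3 FPKM in control, 158 and 159 with TGF-β and 164 and 168 in knockdown, whereas Lox, a lysyl oxidase, had 359 and 366 in control, 846 and 785 with TGF-β and 332 and 362 in knockdown. Plod2 stood at its TGF-β level (1.30 ± 0.18 from control, adjusted p = 0.0011) and Lox was not called (95% interval -0.58 to 0.45). P4ha2, a prolyl hydroxylase, fell with a difference of -1.53 ± 0.14 (adjusted p = 0.000145) and Adamts2, a procollagen peptidase, with one of -1.44 ± 0.18 (adjusted p = 0.000558), and Serpinh1, the collagen chaperone, rose by 0.86 ± 0.14 (adjusted p = 0.00224).

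Of 31 matrix glycoproteins and proteoglycans 11 were raised and 11 lowered, with a median of 0.52, and 17 and 12 without the methionine restriction libraries. Fn1, fibronectin, had 923 and 886 FPKM in control, 2411 and 1687 with TGF-β and 2585 and 2581 in knockdown (1.51 ± 0.29, adjusted p = 0.00409). Tnc, tenascin C, had 58.7 and 63.4 in control, 241 and 207 with TGF-β and 181 and 198 in knockdown (1.62 ± 0.22, adjusted p = 0.00087). These 2 stood near their TGF-β levels. Thbs2 and Has2, a hyaluronan synthase, were highest in knockdown, Thbs2 at 40.8 and 42.6 beside 1.40 and 1.32 in control and 5.17 and 5.75 with TGF-β, and Has2 at 19.1 and 19.4 beside 3.26 and 3.01 in control and 4.25 and 4.50 with TGF-β. Thbs1, a thrombospondin that can release TGF-β from its latent form, went the other way at 3353 and 3349.5 in control, 5064 and 4234 with TGF-β and 799 and 874 in knockdown (-2.003 ± 0.20, adjusted p = 0.000216).

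Laminin chains moved in both directions. Lama1, Lama4 and Lamb1 were higher in knockdown than in control, by 5.32, 1.22 and 0.91, as was Lamb3 above. Lama5 fell from 80.1 and 83.7 to 24.0 and 25.8 (-1.68 ± 0.20, adjusted p = 0.000463) and Lamb2 from 73.1 and 77.7 to 19.1 and 19.2 (-1.92 ± 0.19, adjusted p = 0.000211). Nid2 rose from 17.3 and 17.9 to 41.3 and 42.1 where Nid1 fell. Ccn5, a matricellular relative of Ccn3, went from 174 and 165 in control to 41.9 and 51.3 with TGF-β and 6.66 and 6.22 in knockdown, and Sulf1, an enzyme that edits heparan sulfate, from 342 and 346 in control to 72.9 and 66.0 with TGF-β and 5.75 and 7.25 in knockdown (-5.53 ± 0.17, adjusted p = 3.66e-06).

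Integrins, the receptors for this matrix, showed 4 raised and 4 lowered of 12, with 2 or 3 lowered without any one of the 4 libraries and 2 with quantile normalization. Itga3 fell from 143 and 146 FPKM in control to 16.7 and 17.7 in knockdown, with 106 and 93.7 in TGF-β (-3.00 ± 0.12, adjusted p = 8.64e-06). Itga2 rose from 0.419 and 0.438 to 2.2952 and 3.24, Itga6 from 6.86 and 6.32 to 21.1 and 20.2 and Itgb3 from 2.75 and 3.79 to 9.56 and 8.82. Itga5, the fibronectin receptor chain, was at 103 and 103 in knockdown, 96.0 and 89.1 with TGF-β and 50.7 and 52.2 in control.

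Within the TGF-β pathway itself, 4 of 18 ligands, receptors, latency proteins and Smads were raised against control and 10 lowered, with a median of -0.58. Of the ligands, Tgfb1 had 31.1 and 32.9 FPKM in control, 68.5 and 75.9 with TGF-β and 79.3 and 80.0 in knockdown (1.29 ± 0.091, adjusted p = 5.41e-05), and Tgfb3 had 40.1 and 38.8 in control, 57.2 and 62.0 with TGF-β and 64.3 and 66.8 in knockdown. Both ligands remained at about their TGF-β levels. Tgfb2 had 43.6 and 44.7 in control, 121 and 114 with TGF-β and 23.6 and 26.5 in knockdown, below control at an adjusted p of 0.0497, a call lost without any one of the 4 libraries (adjusted p = 0.109 to 0.179) and with median ratio rescaling (0.0763).

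Of the receptors, Tgfbr2, the ligand-binding kinase, had 82.3 and 85.2 FPKM in control, 37.6 and 25.7 with TGF-β and 33.6 and 36.5 in knockdown (-1.24 ± 0.19, adjusted p = 0.00173). Tgfbr1, the kinase that acts on Smads, was not called at 6.98 and 6.58 beside 8.496 and 8.33 but passed without the methionine restriction libraries (adjusted p = 0.0295), and the co-receptors Tgfbr3 and Eng fell, with differences of -0.75 ± 0.16 (adjusted p = 0.00601) and -0.57 ± 0.11 (adjusted p = 0.00405). Of the latency proteins, which hold the ligand in the matrix, Ltbp4 had 188 and 190.4 in control, 107 and 98.2 with TGF-β and 83.4 and 86.9 in knockdown (-1.14 ± 0.18, adjusted p = 0.00171).

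Of the Smads, Smad3 had 43.8 and 45.2 FPKM in control, 20.3 and 18.2 with TGF-β and 13.9 and 11.9 in knockdown, -1.72 ± 0.11 from control (adjusted p = 3.56e-05). Both TGF-β groups were below control, and knockdown was the lowest of the 3. Smad2 and Smad4 were not called against control (95% intervals -0.55 to -0.025 and -0.49 to -0.028), and passed when the libraries with methionine restriction were left out of the fit (adjusted p = 0.0158 and 0.0305). Smad7, the inhibitory Smad that TGF-β induces, had 13.6 and 12.8 in control, 28.3 and 27.3 with TGF-β and 26.7 and 28.3 in knockdown. Smad7 therefore stood at its TGF-β level while Smad6, the inhibitory Smad of the BMP branch, was at 12.6 and 12.3 beside 45.5 and 43.7 in control and 23.2 and 24.0 with TGF-β.

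Of 24 known targets and feedback genes, 16 were raised against control and 4 lowered in knockdown, with a median of 0.90, and TGF-β against control raised 19 and lowered 1 (Hmox1). In knockdown 2 or 3 were lowered without any one of the 4 libraries. Set against TGF-β, knockdown raised 6 of the 24 and lowered 10, with a median of -0.21 beside 0.14 over all genes. Skil, a Smad corepressor, had 11.8 and 12.0 FPKM in control, 36.5 and 28.2 with TGF-β and 30.8 and 32.7 in knockdown, and Snai1, a repressor of epithelial genes, 13.1 and 13.4 in control, 38.7 and 41.4 with TGF-β and 53.5 and 52.7 in knockdown. Ptgs2, cyclooxygenase 2, had 1.29 and 1.22 in control, 11.0 and 11.6 with TGF-β and 10.1 and 11.2 in knockdown, and Tgfbi, an adhesion protein named for its induction by TGF-β, 70.8 and 66.7 in control, 216 and 242 with TGF-β and 929.7 and 909 in knockdown. Skil and Ptgs2 lay near their TGF-β levels, and Tgfbi above its own by 2.003 ± 0.29 (adjusted p = 0.00153). Ccn2, connective tissue growth factor, had 947 and 926 in control, 3058 and 3342 with TGF-β and 349 and 388 in knockdown, so it passed below control (-1.35 ± 0.11, adjusted p = 0.000111). Hmox1, heme oxygenase, had 19.0 and 20.9 in control, 13.6 and 11.9 with TGF-β and 72.4 and 70.7 in knockdown, 1.79 ± 0.11 above control (adjusted p = 3.56e-05).

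Ccn1, Ccn2 and several others are targets of the Hippo pathway, in which YAP and TAZ bind TEAD factors. Of 16 SRF and MRTF cofactors, Hippo members and targets, 1 was raised (Srf) and 7 were lowered, with a median of -0.36, and 0 to 2 were raised without any one of the 4 libraries. Vgll3, a TEAD cofactor, had 21.6 and 22.2 FPKM in control, 95.2 and 88.0 with TGF-β and 4.07 and 4.20 in knockdown (-2.16 ± 0.15, adjusted p = 5.04e-05). Amotl2 had 130.3 and 126 in control, 102 and 87.9 with TGF-β and 23.3 and 27.3 in knockdown (-2.299 ± 0.12, adjusted p = 2.04e-05), and Axl and Ajuba fell, with differences of -1.98 ± 0.11 (adjusted p = 2.44e-05) and -1.19 ± 0.096 (adjusted p = 9.5e-05). Tead4 was at 2.23 and 2.49 beside 7.04 and 7.62 in control, and Yap1 and Wwtr1, which encodes TAZ, were not called (95% intervals -0.057 to 0.57 and -0.12 to 0.37).

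In the related BMP and activin branch, 7 of 24 genes were raised and 12 lowered, with a median of -0.44. Bmp2 had 16.7 and 14.3 FPKM in control, 11.3 and 13.8 with TGF-β and 64.1 and 63.1 in knockdown, whereas the ligand Bmp4 fell from 73.3 and 76.4 to 28.7 and 29.7. Bmp6, another ligand, had 15.0 and 16.4 in control, 40.9 and 30.2 with TGF-β and 3.61 and 4.34 in knockdown, below control at an adjusted p of 0.00178. The antagonist Grem1, gremlin, fell from 212 and 186 to 62.1 and 57.3, and Inhbb, an activin subunit, from 30.5 and 30.8 to 2.16 and 1.78 (-3.42 ± 0.12, adjusted p = 5.51e-06). Of the Id genes, which BMP signalling induces, Id2 and Id4 differed from control by -2.41 ± 0.26 (adjusted p = 0.000348) and -2.52 ± 0.16 (adjusted p = 3.4e-05), and Id1 and Id3 were not called. In the Wnt pathway 10 of 24 genes were raised and 10 lowered, against 6 to 9 raised and 6 lowered without any one of the 4 libraries. Wif1, a secreted inhibitor, rose from 0.149 and 0.201 to 6.10 and 5.74, Nkd1, a feedback inhibitor, from 1.20 and 1.04 to 8.22 and 7.71, and the transcription factor Lef1 from 7.44 and 6.40 to 27.5 and 24.4. Rspo1, a Wnt agonist, fell from 96.2 and 101 to 8.72 and 8.26.

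**Figure D4:**
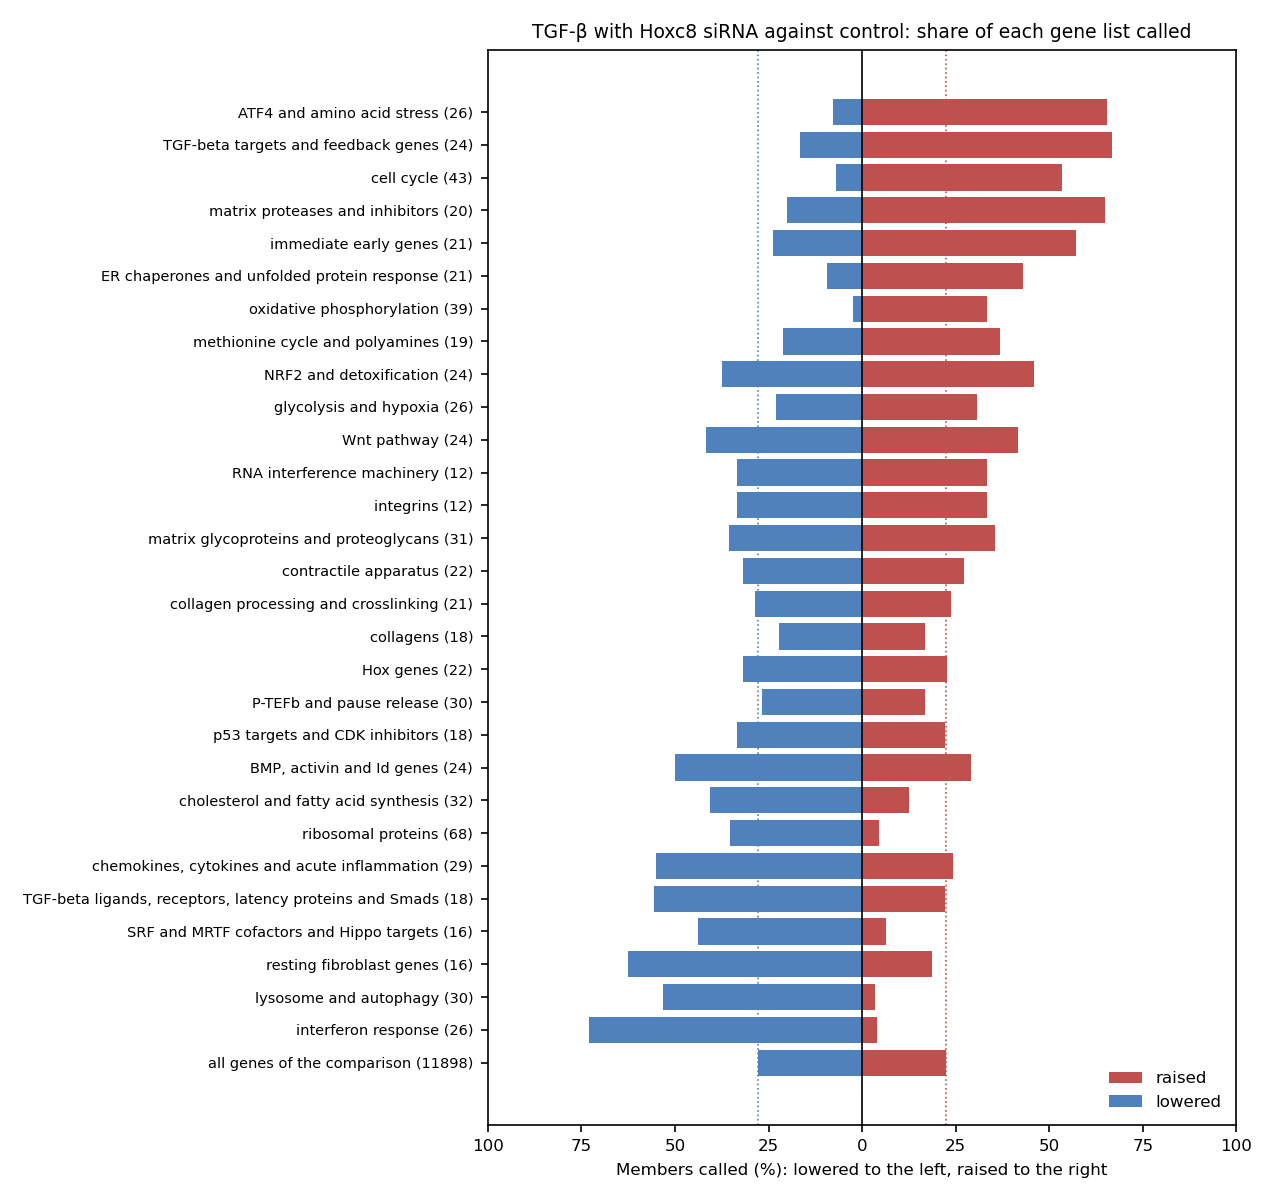
Share of each list's measured genes that were raised (red, to the right) or lowered (blue, to the left) in knockdown against control, in percent, with the number of measured genes in brackets and dotted lines at the 22.3% and 27.8% of all 11898 genes. Interferon, lysosome and resting fibroblast genes lie mostly to the left, and ATF4, cell cycle and protease genes mostly to the right.

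Genes of the interferon response were low, with 19 of 26 lowered and 1 raised, and a median of -1.005. TGF-β against control already lowered 22 of them and raised 1, with a median of -0.90. Parp14 had 14.5 and 13.3 FPKM in control, 3.81 and 3.60 with TGF-β and 3.52 and 3.37 in knockdown (-1.75 ± 0.12, adjusted p = 5.01e-05). Xaf1 had 5.72 and 5.98 in control, 0.602 and 0.447 with TGF-β and 0.565 and 1.01 in knockdown. Both TGF-β groups lay below control for Parp14 and Xaf1. Irf1, a transcription factor of the response, had 26.2 and 25.9 in control, 7.59 and 7.92 with TGF-β and 21.9 and 22.9 in knockdown, and Bst2, an antiviral membrane protein, 8.19 and 8.81 in control, 1.18 and 1.89 with TGF-β and 7.42 and 6.51 in knockdown. Neither was called against control (95% intervals -0.50 to 0.085 and -0.65 to 0.13), and both lay above their TGF-β levels. Irf1 passed below control without the methionine restriction libraries (adjusted p = 0.0415). The gene that rose was Cxcl10, a chemokine, at 3.93 and 3.72 in control, 0.272 and 0.269 with TGF-β and 8.97 and 10.0 in knockdown, a call lost without any one of the 4 libraries (adjusted p = 0.0783 to 0.107).

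Of 29 chemokines, cytokines and inflammatory genes, 7 were raised and 16 lowered, with a median of -0.70, where TGF-β against control raised 4 and lowered 15. Cxcl12, a chemokine that stromal cells make, had 182 and 184 FPKM in control, 23.9 and 26.5 with TGF-β and 6.30 and 6.21 in knockdown (-4.67 ± 0.61, adjusted p = 0.00078). Ccl2 had 159.9 and 163 in control, 424 and 502 with TGF-β and 46.4 and 60.2 in knockdown (-1.59 ± 0.14, adjusted p = 0.000156), and Ccl7 55.3 and 55.5 in control, 69.9 and 90.0 with TGF-β and 11.0 and 13.7 in knockdown. Ccl2 was thus raised with TGF-β and lowered below control in knockdown. Icam1, an adhesion receptor, fell from 258 and 266 to 40.5 and 47.2, and Csf1, the macrophage growth factor, from 126 and 115 to 25.2 and 24.5. Il6 and Lif, cytokines of the gp130 family, rose. Il6 had 0.587 and 0.701 in control, 1.24 and 1.05 with TGF-β and 7.59 and 10.2 in knockdown, and Lif 7.91 and 8.45 in control, 10.3 and 7.97 with TGF-β and 26.9 and 32.3 in knockdown. Il1rl1, the receptor for interleukin 33, was at 6.28 and 6.38 beside 0.346 and 0.476 in control and 15.9 and 15.5 with TGF-β.

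Genes typical of resting fibroblasts were lowered in 10 of 16 cases and raised in 3, with a median of -1.34. TGF-β against control lowered 12 of them and raised 1, with a median of -1.49. C1s, a complement protease, had 160.4 and 146 FPKM in control, 10.9 and 12.7 with TGF-β and 20.2 and 21.1 in knockdown (-2.83 ± 0.11, adjusted p = 8.3e-06). Igfbp6 had 411 and 443 in control, 108 and 137 with TGF-β and 89.1 and 98.3 in knockdown. Both stayed far below control, and C1s lay above its TGF-β level by 0.76 ± 0.11 (adjusted p = 0.00145). Pdgfra, a growth factor receptor of stromal cells, had 29.4 and 25.002 in control, 8.24 and 8.60 with TGF-β and 49.4 and 47.8 in knockdown, above control by 0.82 ± 0.17 (adjusted p = 0.00572), while its relative Pdgfrb was at 6.91 and 7.44 beside 22.0 and 23.6 in control and 8.44 and 8.17 with TGF-β. The other 2 that rose were Igfbp5 and Cebpa, the latter from 8.55 and 8.85 to 15.9 and 17.6. Sema3d, a guidance molecule, and Nkain4 completed the 10 largest falls. Sema3d had 68.9 and 70.9 in control, 6.40 and 5.97 with TGF-β and 2.11 and 1.70 in knockdown, and Nkain4 26.0 and 25.5 in control, 12.5 and 12.2 with TGF-β and 0.0936 and 0.117 in knockdown.

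Of 26 genes of the ATF4 response to amino acid shortage 17 were raised and 2 lowered, with a median of 0.53, where TGF-β against control raised 3 and lowered 5. Without any one of the 4 libraries 9 or 10 were raised and 1 lowered. Slc7a5, a leucine transporter, had 57.5 and 61.6 FPKM in control, 49.0 and 43.4 with TGF-β and 295 and 299.6 in knockdown (2.302 ± 0.17, adjusted p = 6.23e-05). Psph, of serine synthesis, had 28.2 and 31.3 in control, 40.6 and 43.7 with TGF-β and 115 and 120.4 in knockdown (1.95 ± 0.19, adjusted p = 0.000193), and Atf4 itself 287 and 277 in control, 281 and 319 with TGF-β and 433 and 430.1 in knockdown. Chac1 and Shmt2 rose by 1.46 and 1.04, while Atf5 fell from 325 and 307 to 72.9 and 78.5 and Ddit3 from 97.3 and 88.0 to 72.4 and 67.5. The calls of Atf4 (adjusted p = 0.0604 to 0.0749) and Ddit3 (0.105 to 0.233) were lost without any one of the 4 libraries. Of 21 chaperones of the endoplasmic reticulum 9 were raised and 2 lowered (1 lowered without any one of the 4 libraries), among them Calr at 1231 and 1197 beside 675 and 702 and Hsp90b1 at 446 and 459 beside 267 and 251.

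Of 30 genes of lysosome and autophagy, 16 were lowered and 1 raised, with a median of -0.52, where TGF-β against control raised 5 and lowered 5. Npc2, a cholesterol carrier of the lysosome, had 318 and 341 FPKM in control, 539.8 and 662 with TGF-β and 85.5 and 82.7 in knockdown (-1.96 ± 0.12, adjusted p = 2.97e-05). Lamp2, a membrane protein of lysosomes, had 164 and 155 in control, 171 and 184 with TGF-β and 57.6 and 58.7 in knockdown (-1.44 ± 0.09, adjusted p = 3.44e-05). Ctsa, Ctsh and Gaa, hydrolases, fell, with differences of -1.64 ± 0.10 (adjusted p = 3.13e-05), -1.71 ± 0.11 (adjusted p = 3.24e-05) and -1.62 ± 0.15 (adjusted p = 0.000191). Gusb rose, from 29.0 and 27.3 to 47.2 and 48.8. Tfeb and Tfe3, transcription factors of lysosomal genes, were not called (95% intervals -0.15 to 0.44 and -0.10 to 0.44).

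**Figure D5:**
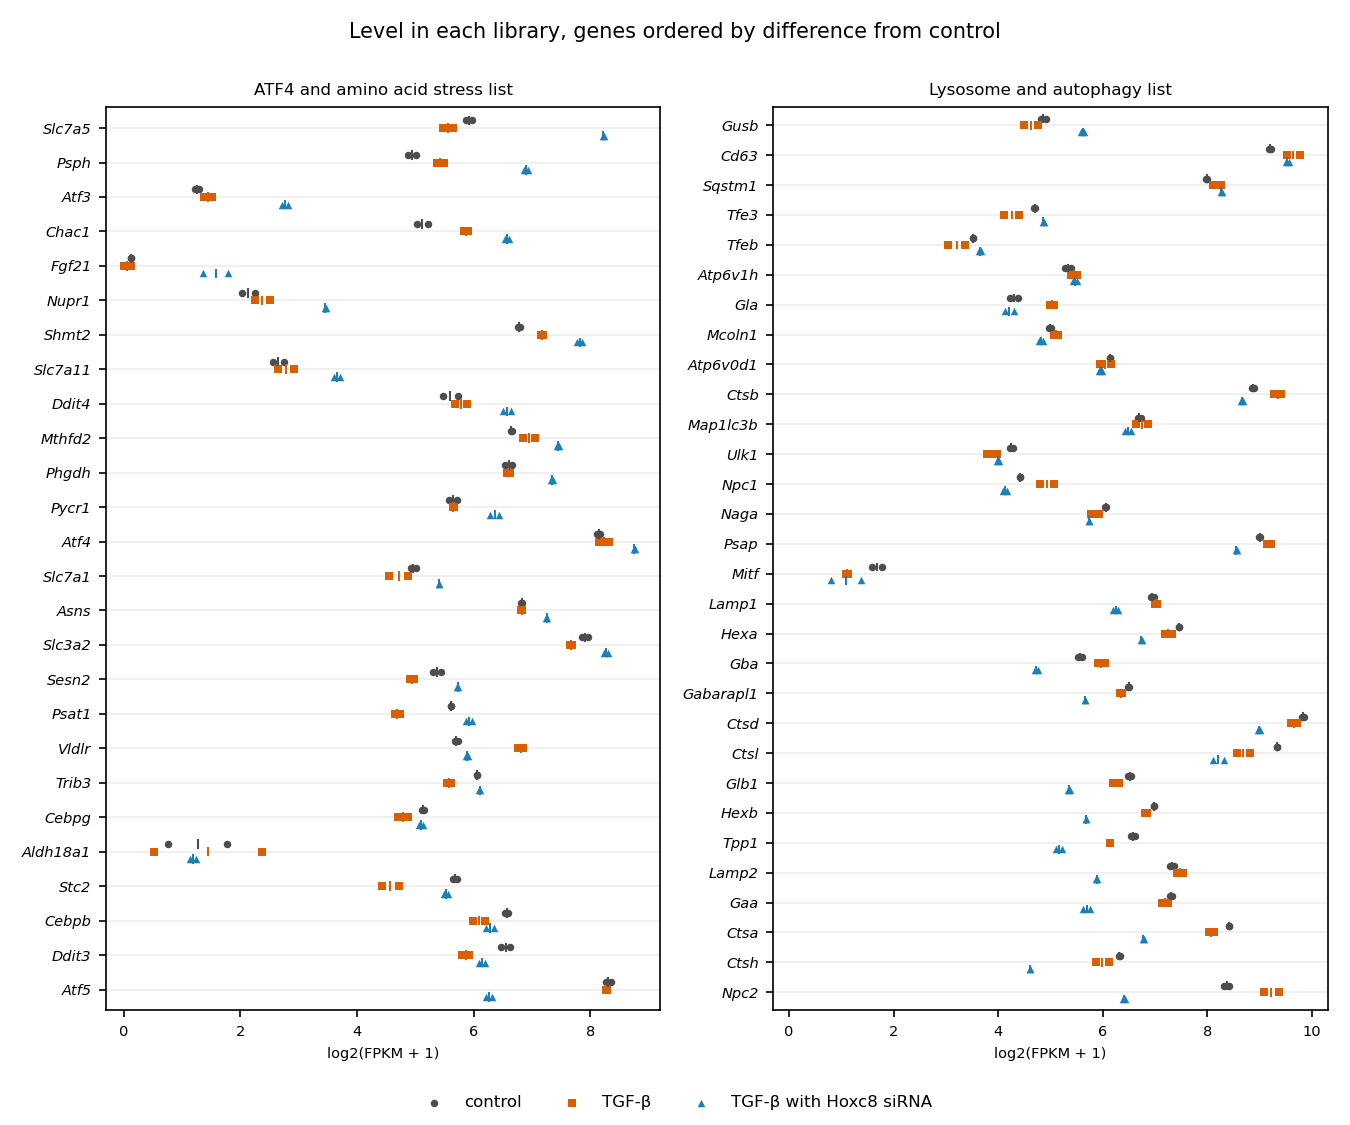
Level of each ATF4 and amino acid stress gene (left) and each lysosome and autophagy gene (right) in the libraries of 3 groups, as log2(FPKM + 1), ordered by the difference of knockdown from control, with short bars at the mean of 2 libraries. On the left Slc7a5 and Psph have knockdown to the right of both other groups, and on the right Npc2, Ctsh and Lamp2 have knockdown to the left of both.

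Oxidative phosphorylation showed 13 of 39 genes raised and 1 lowered (6 to 8 raised and 0 lowered without any one of the 4 libraries), led by Cox6c at 579 and 494 FPKM in knockdown beside 235 and 256 in control and by Atp5f1b at 746 and 744 beside 369.8 and 378. Among 32 genes that make cholesterol and fatty acids 4 were raised (2 or 3 without any one of the 4 libraries) and 13 lowered, including the desaturase Fads1 at 46.6 and 43.1 beside 99.6 and 100.2 and the elongase Elovl5 at 36.1 and 35.4 beside 80.2 and 75.3. Ribosomal protein genes were lowered in 24 of 68 cases and raised in 3, with a median of -0.24 (7 to 10 lowered and 0 raised without any one of the 4 libraries), and reads of these genes can be split with near-identical copies elsewhere. In glycolysis and hypoxia 8 of 26 were raised and 6 lowered, with 4 raised without control replicate 1 and 5 without control replicate 2. In the NRF2 list 11 of 24 were raised and 9 lowered, and in the p53 list 4 of 18 were raised (2 to 4 without any one of the 4 libraries) and 6 lowered. In the methionine and polyamine list 7 of 19 were raised and 4 lowered, against 4 to 6 raised and 1 to 3 lowered without any one of the 4 libraries. Of 12 genes of RNA interference 4 were raised and 4 lowered (2 and 2 without any one of the 4 libraries). For all 11898 genes the shares in the main fit were 22.3% raised and 27.8% lowered. TGF-β against control lowered 25 of the 68 ribosomal protein genes and raised 0. Ago2, the slicer protein of RNA interference, had 11.0 and 10.9 in control, 15.5 and 10.2 with TGF-β and 29.9 and 28.9 in knockdown (1.34 ± 0.19, adjusted p = 0.00115).

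The elongation kinase P-TEFb, made of Cdk9 and a cyclin T, releases paused RNA polymerase II. Cdk9 had 52.1 and 53.2 FPKM in control, 59.9 and 68.2 with TGF-β and 70.8 and 72.7 in knockdown (0.44 ± 0.14, adjusted p = 0.0375), and Ccnt1 1.12 and 1.27 in control, 1.70 and 1.22 with TGF-β and 2.65 and 2.82 in knockdown (0.77 ± 0.22, adjusted p = 0.0247). Both calls were lost without any one of the 4 libraries of this comparison, with adjusted p-values of 0.15, 0.128, 0.122 and 0.147 for Cdk9 and 0.113, 0.0799, 0.0847 and 0.103 for Ccnt1 without control 1, control 2, knockdown 1 and knockdown 2, and with no filter on low values (0.0702 and 0.0566). Ccnt2 fell from 14.7 and 13.4 to 6.49 and 6.88 (-0.97 ± 0.11, adjusted p = 0.000388). Across 30 genes of P-TEFb and pause release 5 were raised and 8 lowered, with 1 raised and 4 or 5 lowered when any one of the 4 libraries was left out. Over all genes 22.3% were raised and 27.8% lowered in the main fit. Nelfa, a subunit of the pausing complex, rose with a difference of 0.79 ± 0.11 (adjusted p = 0.000875), and Ell2, an elongation factor, fell with one of -1.14 ± 0.14 (adjusted p = 0.000637).

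Of 22 Hox genes 5 were raised and 7 lowered against control (4 or 5 lowered without any one of the 4 libraries), with a median of -0.11, and TGF-β against control raised 11 and lowered 2. Next to Hoxc8 in its cluster, Hoxc6 had 10.6 and 10.8 FPKM in control, 12.5 and 12.7 with TGF-β and 3.85 and 3.65 in knockdown (-1.31 ± 0.11, adjusted p = 0.000109). Hoxc9 had 2.07 and 3.45 in control, 8.09 and 11.3 with TGF-β and 3.61 and 2.83 in knockdown and was not called against control (95% interval -0.33 to 0.70). In the Hoxb cluster Hoxb9 stood near its TGF-β level, at 24.3 and 23.0 in control, 73.0 and 68.9 with TGF-β and 68.5 and 75.5 in knockdown, and Hoxb8 rose from 3.90 and 2.95 to 9.71 and 11.8. Neighbouring Hox genes overlap and lie antisense to noncoding transcripts, and the strand setting of the counting is not given in the sources used here.

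Fibroblast markers were present in every library, with 7 or 8 of 10 at or above 1 FPKM in control and 7 in knockdown, and a summed level of 6975 and 7041 in control and 9986 and 10479 in knockdown. The higher sum in knockdown lay in Col3a1 and Col1a1, given above, while Pdgfrb fell. With TGF-β 6 of 10 reached 1 FPKM, the sum was 11749 and 12724 and Vim alone was at 5256 and 6204. Vim was at 2133 and 2082 FPKM in control and 1992 and 2042 in knockdown, S100a4 was at 689 and 688 in control and 629 and 602 in knockdown, and Thy1 was listed at 0 in all 8 libraries. Dcn, another fibroblast marker, was at or below 1.08 FPKM and listed at 0 in knockdown. Fap was at or below 0.12 FPKM in all 8 libraries. Of 14 kidney epithelial markers the summed level was 243 and 241 in control, 196 and 227 with TGF-β, and 686 and 646 in knockdown, almost all of it Krt8 at 238 and 236 in control, 194 and 225 with TGF-β and 685 and 646 in knockdown, while Epcam, Umod and Aqp2 were listed at 0 in all libraries. Krt18, the partner keratin, was at most 0.0411 FPKM in these 8 libraries. Of the 3 epithelial markers measured in the comparison, Krt8 was called raised against control and 2 were called lowered. Aqp1 fell from 3.21 and 3.26 in control to 0.251 and 0.342 in knockdown, and Krt7 from 1.03 and 1.04 to 0.0960 and 0.0267. Of 11 macrophage and leukocyte markers the sum was 36.9 and 34.3 in control and 56.1 and 54.0 in knockdown, nearly all from Cd14 (35.3 and 31.6 in control, 55.3 and 53.5 in knockdown), with Ptprc and C1qb listed at 0 in these 4 libraries. Cd68 went the other way, from 1.57 and 2.68 in control to 0.692 and 0.399 in knockdown. Endothelial markers summed to 20.4 and 20.2 in control and 16.1 and 14.0 in knockdown, carried by Egfl7. The part of other cell types in the results above was not tested.

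Reads recovered from the FPKM values numbered 15118113 to 20146870 per library, with 17913665 and 17732958 in control and 15118113 and 18147345 in knockdown. The SD between replicates was 0.177 on the log2 scale in control and 0.186 in knockdown, against 0.223 with TGF-β alone and 0.307 in the libraries with methionine restriction. The wider spread of the last group enters the shared error, and leaving it out gave 3298 raised and 3885 lowered in knockdown against control. With only control and knockdown fitted, Actn1 (adjusted p = 0.00732), Col4a2 (0.00925), Cdk1 (0.0433), Phldb2 (0.0349), Yap1 (0.00605) and Tfe3 (0.0206) also passed against control. That fit gave 26 genes of oxidative phosphorylation raised and 40 ribosomal protein genes lowered.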

How the data were processed

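RNA-seq of NRK-49F cells was deposited as FPKM per gene for 8 libraries, computed by the authors. The submitters' processing notes give rat build rn6 and list featureCounts, deepTools, Trim Galore and Bowtie2 2.3.5.1, with no role given. The counter's strand setting is not given in the sources used here.

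From these values log2(FPKM + 1) was fitted with limma 3.58.1 in R 4.3.3 (group means of all 4 groups, no covariates, trended prior) for the 12315 genes that reached 1 FPKM in 2 or more of 8 libraries. P-values are two-sided and Benjamini-Hochberg adjusted over these genes, and n = 2 libraries per group throughout. The 2 libraries of a group limit precision, with 4 residual degrees of freedom and a prior worth 3.47. Within a tolerance of 0.02, 100% of values above 0 were whole multiples of 1 read, which gave the depth per library and the reads for limma-voom (2682 genes raised and 3295 lowered in knockdown against control). The smallest whole numbers that fitted were taken for each gene. A gene above 0 in a single library therefore fits by construction, and reads that share a common factor come out too low. Counting intervals were not used. On simulated data the fit of knockdown against control, run on 12119 genes, recovered 33.3% of 1.5-fold, 87.9% of 2-fold and 98.5% of 4-fold changes, and 17 of its 161 calls were on genes that had not been changed. Only 66, 66 and 65 genes were changed by these folds, and every gene had the same relative spread. In the data 50.1% of genes were called and the spread differed between groups, so these rates need not hold there.

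Named by rule were 10 genes chosen by name, the 10 largest rises and falls (called, not overlapping, and with a mean of 5 FPKM or more in the group that is higher), 8 genes per direction each of genes retained, returned or added relative to TGF-β, and up to 5 per list by size of change. A further 68 genes, cell type markers and holders of a motif aside, were named after their values were seen. A few genes that entered the fits and counts are not reported here by name. Members and lists were chosen with earlier results of these data known. Promoter windows came from RefSeq GRCr8, matched by symbol for 8534 of 11898 genes, and no coordinates of the files were used. Alternatives changed the pseudocount, filter, samples fitted, scaling, test and replicate block, or left out 1 library. Python 3.11.15, pandas 2.3.3 and numpy 2.4.6 were used.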

Additional observations from a re-analysis of the deposited data

How the results depend on the processing

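The number of genes called in knockdown against control stayed within 1.5 times of 2650 raised and 3313 lowered under the pseudocount, filter, sample set, scaling and limma-voom alternatives (raised 2314 to 3831, lowered 2905 to 4417). Leaving out 1 library gave 1593 to 3291 raised and 2028 to 3878 lowered. TGF-β against control gave 2278 raised and 2088 lowered with median ratio rescaling, 1999 and 2100 with quantile normalization, and 566 to 1706 and 1572 to 4538 with 1 library left out. The share of its calls that were raised went from 25.6% to 52.2% with median ratio rescaling, which moved the median of all genes from -0.20 to 0.0054. For knockdown against TGF-β that share went from 64.9% to 49.1% and the median from 0.14 to -0.0052, and leaving out 1 library gave 1925 to 4306 raised and 1104 to 2360 lowered. The replicate block gave 2665 raised and 3304 lowered in knockdown against control. Same-numbered libraries share only a number: the correlation of their deviations from the group means was 0.0028 for control and knockdown and at most 0.20 between any pair of groups. Over all genes the block moved no count of calls in the 3 comparisons by over 1.5 times. Of ATF4 genes 1 was lowered with it in place of 2, Ddit3 lost its call (adjusted p = 0.0565) and Fst passed (0.0414).

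Of 264 genes named, 228 were called, 204 of them under all 16 alternatives, and 24 lost the call under at least 1. Of the 36 not called, 20 passed under at least 1. None of the 264 reversed direction while called under these alternatives. Of 31 list medians 6 changed sign, those of the contractile, integrin, Hox, NRF2, p53 and kidney epithelial marker lists. The cause was not tested. Low-level genes such as Hoxc8, with 3 to 51 reads in control and knockdown, are limited by depth.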

Other observations

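Values in the TGF-β libraries with methionine restriction belong to no comparison above. Fmr1nb stood at 20.8 and 21.9 FPKM there, F13a1 at 1.96 and 2.44, Ptprn at 57.4 and 68.8 and Tfec at 17.9 and 14.2. Col3a1 was at 506 and 105 in these libraries and Mmp13 at 2.36 and 14.7, a wide spread between the 2 libraries of this group in both genes. Hoxc8 rested on 18 and 23 reads there, at 0.417 and 0.614 FPKM.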
